A study of Homo sapiens with 2 samples.

Results

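Mitochondria carry their own ribosome, the mitoribosome, whose RNAs are encoded in mitochondrial DNA and whose proteins are encoded in the nucleus, made in the cytosol and imported. Genes of large subunit proteins carry MRPL symbols and genes of small subunit proteins carry MRPS symbols. The mitoribosome translates only membrane subunits of the respiratory chain and of ATP synthase, so nuclear and mitochondrial gene expression must be matched for these complexes to assemble. Red cell precursors rely on mitochondria because haem synthesis begins and ends there.

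The genes described here are all those whose platform symbol begins with MRPL or MRPS and a digit and that have a probe assigned to exactly 1 symbol. They numbered 74 of 18377 genes measured, with 48 MRPL and 26 MRPS genes, on 77 probes. Of the 74, 73 are protein-coding in RefSeq, and MRPS31P5 is a transcribed pseudogene. The platform symbols MRPL51, MRPS6, MRPS24 and MRPS28 were found only on probes shared with another gene and are not among the 74.

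Expression was measured in K562, an established human cell line derived from a chronic myeloid leukaemia, which carries the BCR-ABL1 fusion kinase. In one culture erythropoietin (EPO), the hormone under which red cell precursors survive and divide, was present during growth. The label of the other names no EPO. It is treated as the culture without EPO because the growth protocol describes both conditions. Both were kept in RPMI with 10% fetal bovine serum and antibiotics and received imatinib, an inhibitor of BCR-ABL1, at 2 µM for 6 h, so the cultures share the drug and no untreated culture was analysed here. Total RNA from each was hybridised to 1 Affymetrix Gene 1.0 ST array, a whole-transcript array. Since each group has 1 array, replicate error cannot be estimated, nothing was tested, and precision is limited by the number of arrays.

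The deposited values are read as log2. They lie around 0 on both arrays, with column medians of -0.0089 with EPO and 0.052 without EPO, and are read as deviations from a baseline for each probe, which the sources used here do not give. They therefore give no transcript level, and the K562 identity could not be checked by marker levels. A difference between the arrays cancels such a baseline. The standard deviation across all 28869 probes was 0.134 with EPO and 0.431 without EPO, so the array without EPO lay farther from the baseline. In bulk RNA, fewer cells of a type and less RNA per cell cannot be told apart. The lists of marker genes had median differences of 0.25 for 8 of 11 erythroid and K562 markers, -0.23 for 5 of 6 lymphoid markers, -0.16 for 4 monocyte markers and 0.015 for 4 epithelial markers. The ranges, in that order, were -0.040 to 1.02, -0.67 to -0.20, -0.77 to 1.05 and -0.041 to 1.25. Genes of silent families such as olfactory receptors had a median of -0.33. The part of other cell types in the differences was not tested.

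Most mitochondrial ribosomal protein genes were higher with EPO than without it in the values as deposited, though not with one other scaling given below. The median log2 difference, with EPO minus without EPO, was 0.41 over the 74 genes, against -0.047 over all 18377 genes. Of the 74, 59 (79.7%) had a difference above 0, against 45.4% of all genes. Genes were called past 2-fold from a log2 difference of 1. By this rule 10 genes (13.5%) were higher with EPO and 0 were lower. Over all genes 6.19% were at least 2-fold higher and 0.898% at least 2-fold lower. At 1.5-fold, 25 members were higher and 0 lower, against 18.1% and 4.65% of all genes, and at 4-fold 0 were higher or lower, against 0.00544% and 0.229%. These directions depend on how the arrays are scaled to each other. With the median of all genes subtracted, 11 members were higher and 0 lower past 2-fold, against 7.17% and 0.849% of all genes. With the median of 482 genes of silent families such as olfactory receptors (-0.33) subtracted, 22 were higher and 0 lower, against 15.3% and 0.55%. With the median of 242 genes of other cellular machinery (0.52) subtracted, the median of the 74 became -0.11 and 27 lay above 0, with 1 gene at least 2-fold higher and 2 lower, and over all genes 0.539% were higher and 8.51% lower. The values that follow are as deposited.

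**Figure D1:**
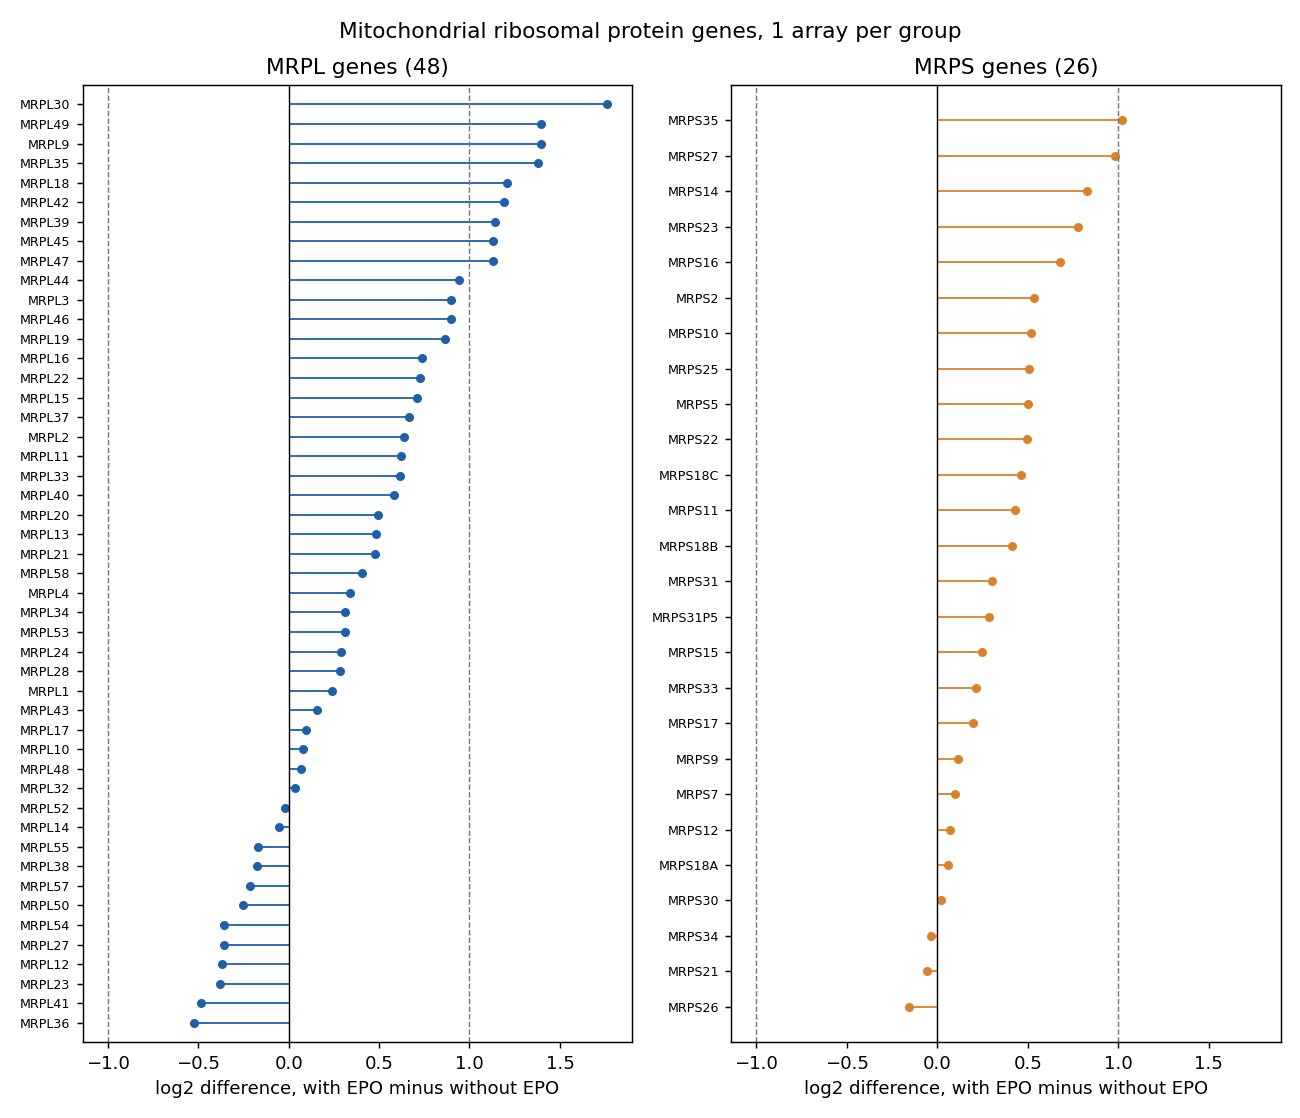
Log2 difference between the array with EPO and the array without EPO (horizontal axis) for each of 48 MRPL genes (left) and 26 MRPS genes (right), sorted by difference. Each point is 1 gene from 1 array per group, and dashed lines mark 2-fold. MRPL genes run from -0.52 (MRPL36) to 1.76 (MRPL30), and MRPS genes from -0.16 (MRPS26) to 1.02 (MRPS35).

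The median difference was 0.44 over the 48 MRPL genes and 0.36 over the 26 MRPS genes, a gap of 0.082. The standard deviation across genes was 0.58 for MRPL and 0.32 for MRPS. The upper quartile was 0.87 for MRPL and 0.51 for MRPS, and the lower quartile was 0.020 for MRPL and 0.10 for MRPS. Both ends of the distribution were therefore held by large subunit genes. Of the 10 genes at least 2-fold higher, 9 were MRPL (18.8% of 48) and 1 was MRPS (3.85% of 26), and of the 15 genes below 0, 12 were MRPL and 3 were MRPS.

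Symbols do not always follow the structure. In structures of the human mitoribosome, the products of MRPS30 and MRPS18A lie in the large subunit, and 4 further measured genes with other symbols, DAP3, CHCHD1, PTCD3 and GADD45GIP1, encode mitoribosome proteins. With genes assigned by structure, the large subunit (51 genes) had a median of 0.34 and the small subunit (26 genes) 0.45, so the gap turned to -0.10. The order of the subunit medians thus depended on the assignment. The counts of 9 and 1 genes past 2-fold could not change, since no gene moved, added or left out was past 2-fold.

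On the array with EPO the members stayed close to the baseline, from -0.12 to 0.37 with a median of 0.069. On the array without EPO they ran from -1.53 to 0.47 with a median of -0.30. With EPO, 55 of 74 lay above the baseline, and without EPO, 60 of 74 lay below it. In 64 of the 74 genes the value without EPO was the one farther from the baseline, against 15184 of 18377 over all genes. These shares are 86.5% and 82.6%, so the wider spread without EPO was a feature of all genes.

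**Figure D2:**
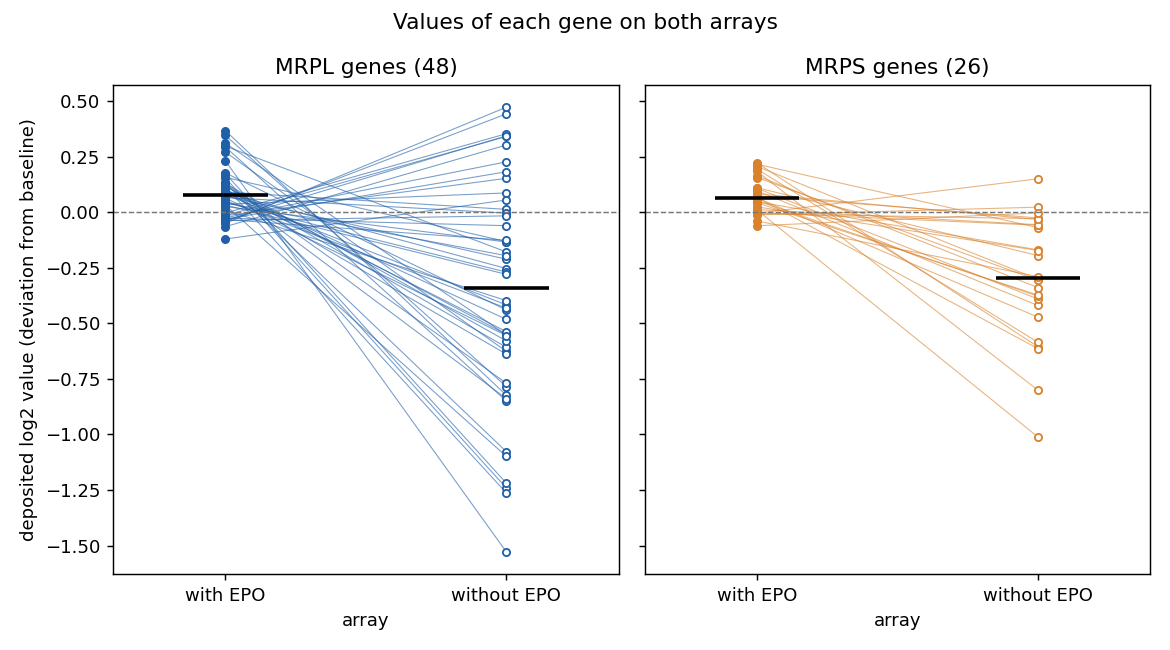
Deposited log2 value, a deviation from an unknown baseline (vertical axis), of each MRPL gene (left, 48) and MRPS gene (right, 26) on the array with EPO (filled points) and the array without EPO (open points), with a line joining each gene and black bars at the medians. Values with EPO lie between -0.12 and 0.37, and values without EPO spread from -1.53 to 0.47.

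MRPL30, a large subunit protein with a bacterial counterpart, had the largest difference of the 74. Its value was 0.23 with EPO and -1.53 without EPO, a difference of 1.76 (3.39-fold higher), and it ranked 22 among all 18377 genes. MRPL49, a protein found in mitochondrial ribosomes and not in bacterial ones, stood at 0.15 with EPO and -1.24 without EPO, a difference of 1.39 (2.63-fold). MRPL9, a protein of bacterial type, stood at 0.17 with EPO and -1.22 without EPO, also a difference of 1.39. MRPL35, also of bacterial type, stood at 0.11 with EPO and -1.26 without EPO, a difference of 1.38 (2.60-fold). These 3 genes after MRPL30 were separated by less than 0.02 and have no order beyond that.

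The other MRPL genes past 2-fold lay between 1.13 and 1.21. MRPL18, a protein of the central protuberance, the crest of the large subunit that faces the small one, stood at 0.13 with EPO and -1.08 without EPO, a difference of 1.21. MRPL42, specific to mitochondria, stood at 0.37 with EPO and -0.82 without EPO, a difference of 1.19, and its value with EPO was the highest of the 74. MRPL39, also specific to mitochondria, stood at 0.29 with EPO and -0.85 without EPO, a difference of 1.14. Both MRPL45 and MRPL47 sit where the new peptide leaves the ribosome, and MRPL45 tethers the ribosome to the inner membrane there. MRPL45 stood at 0.032 with EPO and -1.10 without EPO, a difference of 1.13. MRPL47 stood at 0.35 with EPO and -0.78 without EPO, likewise a difference of 1.13. The pair reached the same difference from unlike values, since MRPL45 was near the baseline with EPO and MRPL47 was well above it.

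MRPS35 was the single small subunit gene past 2-fold, at 0.0099 with EPO and -1.01 without EPO, a difference of 1.02 (2.03-fold). MRPS27, a mitochondria-specific protein of the small subunit with repeats typical of RNA-binding proteins, lay just under the threshold, at 0.18 with EPO and -0.80 without EPO, a difference of 0.99 (1.98-fold). The threshold thus divides a pair of genes that differ by little. MRPS14, a protein of bacterial type, had a difference of 0.83, from 0.22 with EPO and -0.61 without EPO. MRPS23 had a difference of 0.78, and MRPS16, whose loss causes a mitochondrial disease of infancy, had 0.68. After MRPL47, the next large subunit genes were MRPL44, which carries a ribonuclease III fold, at 0.94, MRPL3 and MRPL46 at 0.90 each and MRPL19 at 0.86.

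At the other end, 6 MRPL genes had differences between -0.52 and -0.36, all within 2-fold. MRPL36, a protein of bacterial type and the lowest of the 74, stood at -0.050 with EPO and 0.47 without EPO, a difference of -0.52 (1.44-fold lower). MRPL41, specific to mitochondria, stood at -0.043 with EPO and 0.44 without EPO, a difference of -0.49. MRPL23, a protein at the peptide exit, stood at -0.037 with EPO and 0.34 without EPO, a difference of -0.38. MRPL12, which forms the stalk that recruits translation factors and also binds the mitochondrial RNA polymerase, stood at -0.065 with EPO and 0.30 without EPO, a difference of -0.37. MRPL27, which reaches toward the site of peptide bond formation, and MRPL54 both had a difference of -0.36. All 6 lay below the baseline with EPO and above it without EPO, the opposite of the 10 genes past 2-fold. MRPL36 stood at rank 17171 of 18377 genes. Among MRPS genes the lowest were MRPS26 at -0.16, MRPS21 at -0.058, MRPS34 at -0.034, MRPS30 at 0.023 and MRPS18A at 0.057.

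The pseudogene MRPS31P5 had a difference of 0.29, close to the 0.31 of its parent MRPS31, and transcripts of near-identical sequence may not be told apart by array probes. RefSeq lists at least 1 pseudogene copy for 38 of the 74 members, among them 7 of the 10 past 2-fold (MRPL30, MRPL49, MRPL9, MRPL35, MRPL42, MRPL45 and MRPS35). The values of these genes are uncertain to that extent. Over the 35 protein-coding members with no such copy, the median was 0.28. In this list 3 genes (8.57%) were at least 2-fold higher, MRPL18, MRPL39 and MRPL47, near the 6.19% of all genes. Over the 38 with a copy the median was 0.50 and 18.4% were at least 2-fold higher.

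Promoter stretches are shown for 2 of the highest members, MRPL30 and MRPL47, and 2 of the lowest, MRPL36 and MRPL27, because they hold motifs of factors known for nuclear genes of mitochondrial proteins. These factors are NRF1, the ETS factor GABPA, also called NRF2, and YY1. Each line gives the 150 bases before the RefSeq start site on the gene's strand in GRCh38.p14, at chr2:99181034-99181183 (+) for MRPL30, chr3:179604639-179604788 (-) for MRPL47, chr5:1799838-1799987 (-) for MRPL36 and chr17:50373185-50373334 (-) for MRPL27. Capitals mark motif matches.
MRPL30: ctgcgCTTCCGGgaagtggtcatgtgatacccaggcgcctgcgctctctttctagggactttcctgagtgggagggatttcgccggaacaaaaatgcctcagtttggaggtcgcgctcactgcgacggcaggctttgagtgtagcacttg
MRPL47: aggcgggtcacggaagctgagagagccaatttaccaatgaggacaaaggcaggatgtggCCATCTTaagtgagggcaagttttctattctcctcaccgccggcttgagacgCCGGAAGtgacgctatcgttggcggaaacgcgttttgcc
MRPL36: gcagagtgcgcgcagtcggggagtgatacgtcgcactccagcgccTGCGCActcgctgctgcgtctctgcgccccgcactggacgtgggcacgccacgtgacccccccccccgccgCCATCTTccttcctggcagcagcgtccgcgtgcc
MRPL27: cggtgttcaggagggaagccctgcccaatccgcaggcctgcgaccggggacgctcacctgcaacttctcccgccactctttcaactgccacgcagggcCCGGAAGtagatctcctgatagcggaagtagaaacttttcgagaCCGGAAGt

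MRPL30 holds an ETS match at -145 to -139, counted from the start site, on the reverse strand. MRPL47 holds an ETS match at -39 to -33 and a YY1 match on the reverse strand at -91 to -85. MRPL36, the lowest member, holds an NRF1 match at -105 to -100 and a YY1 match on the reverse strand at -34 to -28. MRPL27 holds a pair of ETS matches, at -52 to -46 and -8 to -2.

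Motifs were searched on both strands in windows of 300 bases, from 250 before to 50 after a start site, which the RefSeq table gave for 66 of the 74 members (82 windows). No motif's letters contain another's, and matches that overlap were each counted. The letters CCGGAAG, the ETS core bound by GABPA, were found in 32 of 82 member windows (39%), against 10.3% of all 35116 windows. The YY1 letters AAGATGG were found in 25 member windows (30.5%), against 5.84% of all. The letters TGCGCA, a half-site of NRF1 that reads the same on both strands, were found in 16 member windows (19.5%), against 8.24% of all. Of the 66 members, 48 held at least 1 of the 3 motifs in some window, and 11 members had several windows. The same share was not counted over all genes, so the 48 have no background to be set against.

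How the members with a match compared with the others depended on the motif and on the letters used for it. The median difference was 0.31 for 29 members with the ETS letters and 0.42 for 37 without. It was 0.46 for 22 members with the YY1 letters and 0.31 for 44 without, and 0.36 for 14 with the NRF1 letters and 0.37 for 52 without. With longer YY1 letters (10 of them), found in 14.6% of member windows and 1.2% of all, the order turned, with medians of 0.045 for 12 members and 0.42 for 54. With other NRF1 letters (10, of which 1 is free), found in 12.2% of member windows and 5.78% of all, the medians were 0.12 for 9 members and 0.43 for 57. Both sets of 10 letters were chosen with the differences in view. These are matches of letters, and binding was not measured.

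The members also differed by base composition of the promoter window, taken from the first window RefSeq lists. The median difference was 0.48 over 32 members with under 60% G and C, 0.28 over 23 members from 60 to 70%, and -0.034 over 11 members at 70% or more. Over all genes the same classes had medians of -0.092, 0.10 and 0.046. For MRPL genes they were 0.62 (19 genes), 0.28 (15) and -0.051 (7). For MRPS genes they were 0.43 (13 genes), 0.26 (8) and 0.23 (4). Across the 66 members, difference and G and C content had a Pearson r of -0.22 and a Spearman rho of -0.23, against 0.16 and 0.14 across 14208 genes. All points share the same pair of arrays, and genes are not replicates.

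Members were also compared by ancestry and by place in the large subunit. The median difference was 0.43 over 45 proteins with a bacterial counterpart and 0.36 over 28 specific to mitochondria. In each list 5 genes were at least 2-fold higher, 11.1% of the 45 and 17.9% of the 28, against 6.19% of all genes. The gap of 0.069 between the medians became -0.029 when the probes shared with another gene were added. Around the peptide exit, 6 genes ranged from -0.38 for MRPL23 to 1.13 for MRPL45 with a median of 0.51. Between them stood MRPL47, also at 1.13, MRPL22 at 0.72, MRPL24 at 0.29 and MRPL17 at 0.094. The 3 stalk genes were split, with MRPL11 at 0.62, MRPL10 at 0.078 and MRPL12 at -0.37. The 7 genes of the central protuberance had a median of 0.070. MRPL18 (1.21), MRPL46 (0.90) and MRPL40 (0.58) were its high members, MRPL48 stood at 0.070, and MRPL55 (-0.17), MRPL38 (-0.18) and MRPL27 (-0.36) lay below 0.

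MRPL58, a peptidyl-tRNA hydrolase that frees stalled mitoribosomes, had a difference of 0.41. The 3 related genes MRPS18C, MRPS18B and MRPS18A had 0.46, 0.42 and 0.057. MRPS12, a protein of the decoding centre, had 0.068, and MRPS22, mutated in a mitochondrial disease, had 0.50. The probes of MRPS18B, which has 3, and of MRPL20, which has 2, agreed within 0.002. On the probes shared with another gene, MRPL51 (with SPTLC1) differed by 0.89, MRPS28 (with TPD52) by 0.20, MRPS24 (with its readthrough with URGCP) by 0.099 and MRPS6 (with SLC5A3) by 0.085.

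The cytosolic ribosome makes nearly all cell protein. The 59 genes of its proteins found by symbol on probes of exactly 1 symbol had a median difference of 0.041. Of these, 0 were past 2-fold in either direction. The list need not hold every gene of that ribosome. Cytosolic large subunit genes had a median of 0.032 and small subunit genes 0.064. The 76 genes of the respiratory chain and ATP synthase, whose mitochondrial partners the mitoribosome makes, had a median of 0.28. Among the 76, 6 (7.89%) were at least 2-fold higher and 1 (1.32%) lower, near the 6.19% and 0.898% of all genes. The mitochondrial ribosomal protein genes thus lay 0.37 above the 59 listed cytosolic ones by the median. No test of that difference is possible with 1 array a group. The 242 genes of other cellular machinery, which include genes of the respiratory chain, had a higher median of 0.52. Of these, 80.2% lay above 0 and 13.6% were at least 2-fold higher, against 79.7% and 13.5% of the mitochondrial ribosomal protein genes, so the shares were close to those of machinery genes.

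**Figure D3:**
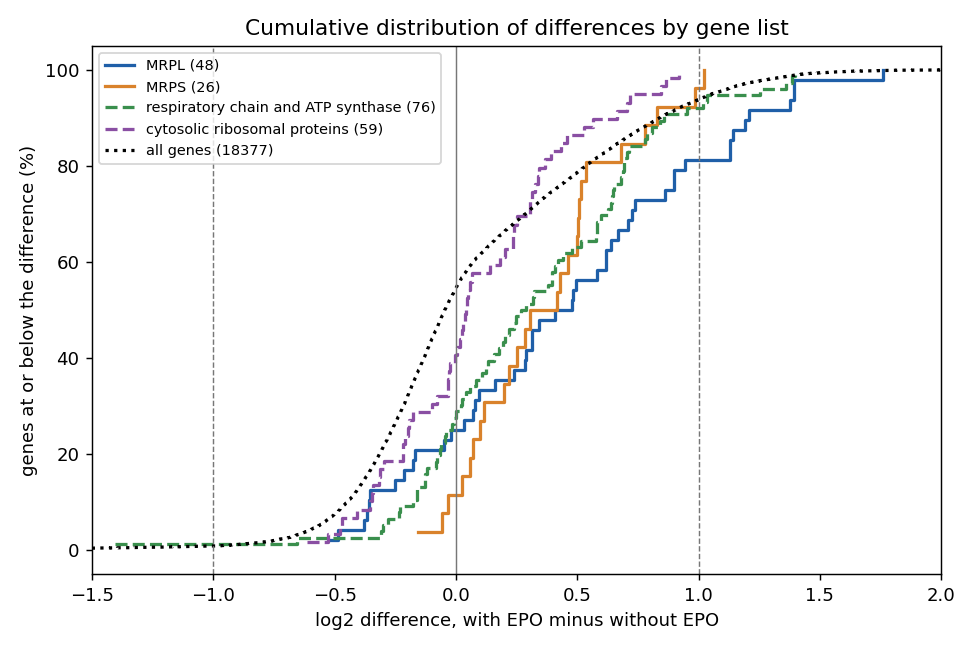
Cumulative share of genes (vertical axis, percent) at or below each log2 difference, with EPO minus without EPO (horizontal axis), for MRPL, MRPS, respiratory chain and cytosolic ribosomal protein genes and for all 18377 genes. The horizontal axis is cut at -1.5 and 2. The MRPL curve is the farthest right at its upper end, where 18.8% of genes lie past 2-fold (right dashed line), against 3.85% of MRPS and 6.19% of all genes.

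The 7 other lists compared hold genes of mitochondrial gene expression, of mitochondrial DNA upkeep and of their regulation. All 7 had positive medians. With the machinery median subtracted, 3 of them did (translation factors, transcription and RNA upkeep, and DNA upkeep). Over all genes 6.19% were at least 2-fold higher and 0.898% lower. Of 14 measured translation factors, 14 lay above 0, with a median of 0.55, and 1 (7.14%) was at least 2-fold higher, near the share of all genes. This was MTIF2, the initiation factor that brings the first tRNA to the mitoribosome, at 0.19 with EPO and -1.16 without EPO, a difference of 1.36. MTFMT, which formylates that tRNA, stood at 0.91, and the release factor relative MTRF1 at 0.79. The list of mitochondrial tRNA synthetases, which also holds QRSL1, GATB and GATC (21 genes in all), had a median of 0.32. In it 3 (14.3%) were at least 2-fold higher and 0 lower. They were KARS1, which charges lysine tRNA in both cytosol and mitochondria, at 1.69, QRSL1, a subunit of the enzyme that completes glutamine tRNA, at 1.29, and the asparagine enzyme NARS2 at 1.12.

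Factors of mitoribosome assembly (25 genes) had a median of 0.35, with 3 (12%) higher and 0 lower, against 6.19% and 0.898% of all genes. The 3 were the rRNA methyltransferase NSUN4 at 1.54, the RNA-binding protein FASTKD2 at 1.20 and ERAL1, a GTPase that protects the small subunit rRNA, at 1.02. Of the 25, 6 lay below 0, the lowest being METTL17 at -0.30. Genes of mitochondrial transcription and RNA upkeep (14 genes) had a median of 0.58, with 3 (21.4%) higher and 0 lower. The 3 were LRPPRC, which stabilises mitochondrial mRNAs, at 1.27, the RNA helicase SUPV3L1 at 1.21 and its partner nuclease PNPT1 at 1.12. Genes of mitochondrial DNA upkeep (11 genes) had a median of 0.53, all above 0, with 3 (27.3%) higher. These were the ribonucleotide reductase subunit RRM2B at 1.46, the exonuclease MGME1 at 1.45 and the deoxyguanosine kinase DGUOK at 1.10. Regulators of nuclear genes for mitochondria (11 genes) had a median of 0.27, with 1 (9.09%) at least 2-fold higher, and 3 lay below 0. The largest differences were SP1 at 1.28, the GABPA partner GABPB1 at 0.79 and the coactivator PPRC1 at 0.61. Of the factors whose motifs are described above, GABPA stood at 0.48, YY1 at 0.098 and NRF1 at -0.0051. Of the mitoribosome proteins with other symbols (4 of 5 measured), CHCHD1 stood at 0.57, DAP3 at 0.56 and GADD45GIP1 at -0.49.

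**Figure D4:**
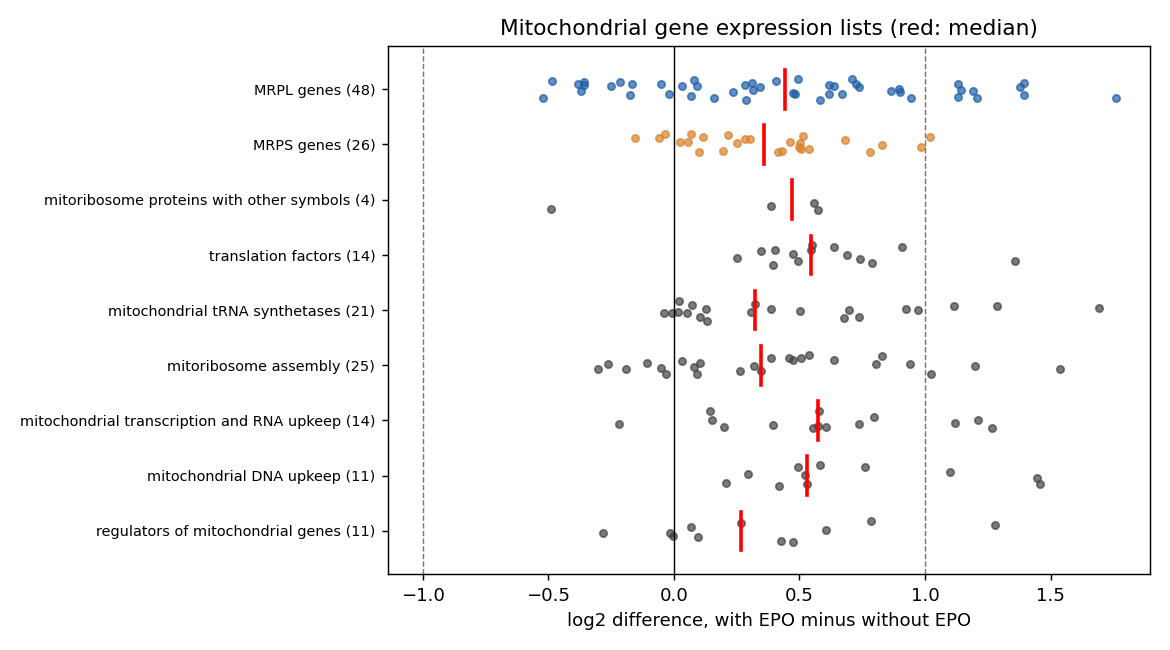
Log2 difference, with EPO minus without EPO (horizontal axis), of each gene (points, spread vertically for display). Rows are the MRPL and MRPS lists and 7 other lists of mitochondrial gene expression, DNA upkeep and regulation. Red bars are medians and dashed lines mark 2-fold. All list medians lie above 0 as deposited, from 0.27 for the regulators to 0.58 for transcription and RNA upkeep. With the machinery median (0.52) subtracted, 3 of the 7 lists keep a positive median.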

How the data were processed

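Gene expression was measured on 2 arrays of imatinib-treated K562 cells, 1 with EPO and 1 without EPO. The deposited log2 values were used as the authors gave them, and how they were summarised and normalized, with which software and on which log base, is unknown here because neither the labels nor the file headers state it. The values lie around 0 and are read as centred per probe, which no source states. In 631 of 28869 probes (2.19%), though in 0 members, the 2 columns summed to 0 within 1e-05. Probes were named through the platform annotation, where 19310 carried 1 symbol, 1752 several and 7807 none. All 74 members matched RefSeq (GRCh38.p14) by Entrez ID, and only names, gene type and promoter windows were taken from it. Probes of a gene were averaged, and the difference was taken as with EPO minus without EPO. No filter on dim genes was possible without levels.

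Genes named are the members past 2-fold, the 5 highest and 5 lowest of each subunit, members of 3 structural groups and up to 3 genes in each other list, and others were named after their values were seen. The members and lists were chosen with earlier results of these data known. Alternatives were other folds, scalings, probe rules, memberships and the mean. Calculations used Python 3.11.15, NumPy 2.4.6, pandas 2.3.3 and matplotlib 3.10.9, and the counting of calls was tested on simulated data.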

Additional observations from a re-analysis of the deposited data

How the results depend on the processing

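With 1 array in each group, no result has a replicate check, signal over background is not given, and no paired analysis was possible because each group has 1 array. At 1.5-fold, 25 members were higher (20 MRPL, 5 MRPS), against 18.1% of all genes, and at 4-fold 0 of the 74, of MRPL and of MRPS were, against 0.00544% of all genes. With the median of all genes (-0.047) subtracted, 2 MRPS genes were at least 2-fold higher, against 7.17% of all genes. With the machinery median (0.52) subtracted, the medians were -0.11 for all members, -0.080 for MRPL and -0.16 for MRPS. Then 1 member was higher, the MRPL gene MRPL30, 2 were lower, the MRPL genes MRPL36 and MRPL41, and 0 MRPS genes were higher. By the same scaling 0.539% of all genes were higher and 8.51% lower. With the median of silent families (-0.33) subtracted, the medians were 0.74, 0.78 and 0.69, and 22 members (17 MRPL, 5 MRPS) were higher, against 15.3% of all genes. The gap between MRPL and MRPS medians was 0.19 with shared probes added, 0.027 over protein-coding members, -0.10 with subunits as in structures and 0.20 without members that have a pseudogene copy. The gap between bacterial-type and mitochondria-specific medians was -0.029, 0.033 and 0.28 with shared probes, structural subunits and no pseudogene copies, and 0.011 by the mean. Without members that have a pseudogene copy and the pseudogene itself, an alternative chosen after seeing the data, 3 members (8.57%) were higher. Over all genes 6.19% were. They were 3 MRPL and 0 MRPS genes, and the family medians were 0.29 and 0.092 in that order. The other 76 values moved by no more than 1.5 times. Part of them could hardly move, since only 2 members have several probes, which agreed within 0.002. The cause of the changes given above was not tested.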
